A study of Homo sapiens with 4 samples.

Results

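The EGF receptor family and its ligands were examined in control and TGF-β1-treated HK-2 cells. HK-2 is an immortalised epithelial line from the proximal tubule of a human kidney, and TGF-β1 (transforming growth factor β1) is a cytokine that drives fibrosis. The 10 genes are the receptors EGFR, ERBB2 and ERBB3, the ligands HBEGF, AREG, TGFA, EREG, BTC and NRG1, and the intracellular receptor inhibitor ERRFI1. They were taken by symbol from a table of 25609 genes, and all 10 were found. The 4 libraries of total RNA comprised 2 controls and 2 samples labelled TGFbeta1, all of genotype WT. The protocol describes 24 h without serum, then TGF-β1 at 20 ng/mL for 24 h, with 4-thiouridine, a uridine analogue incorporated into new RNA, at 100 μM during the last 20 h. Every sample carries this same text, so controls are assumed here to differ by lacking TGF-β1 alone. A single cell line was used, and separate cultures are not named, so p-values measure the spread between libraries, which may be technical.

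The EGF receptor family consists of membrane tyrosine kinases that pair when a ligand binds and then signal through RAS-ERK and PI3K-AKT. HBEGF, AREG, TGFA, EREG and BTC bind EGFR, whereas NRG1 binds ERBB3 and ERBB4. ERBB2 has no known ligand of its own and acts as a partner, and ERBB3 has little kinase activity and depends on that partner. The ligands are made as membrane precursors that metalloproteases release. In the kidney tubule the pathway is known for its part in repair after injury and, when sustained, in fibrosis.

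With TGF-β1, 2 of the 8 genes tested were called changed, against 9.12% of all tested genes, and both were ligands that fell. TGFA fell 3.58-fold and NRG1 fell 1.93-fold, and neither call held in all of the alternative fits given below. The mean level of EGFR was 9.26 ± 0.115 RPKM without and 9.36 ± 0.945 RPKM with TGF-β1 (mean ± SD of 2 libraries, as throughout). HBEGF was higher in both TGF-β1 libraries, at 21.3 ± 1.56 against 15.8 ± 0.608 RPKM, and missed the threshold narrowly (adjusted p = 0.0545, limma). RPKM divides reads by exon length in kilobases and by library size in the authors' scaling, and can be compared between genes. Genes with a mean of at least 0.5 RPKM were tested with limma on log2(RPKM + 0.5), and an adjusted p below 0.05 was called a change. Log2 fold changes are on that scale, which understates the change of weakly expressed genes, and folds are ratios of group means.

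Of the 10 genes 8 were tested, since ERBB3 and BTC were below the filter. The 2 calls stand against 9.12% of 16590 genes called in either direction, 3.0% called lower and 6.12% called higher. The share over all genes depends on the filter: at a mean of at least 2 RPKM, 1750 of 10440 genes were called. None of the 8 genes was called higher by limma, and 3 of the 8 had an unadjusted p under 0.05. The median log2 fold change was -0.06 over the 8 genes and 0.03 over all tested genes. In 5 of the 8 genes the groups did not overlap, against 54.1% of all tested genes (29.5% higher and 24.6% lower). The 5 were ERBB2 and HBEGF, higher with TGF-β1, and TGFA, NRG1 and ERRFI1, lower. An exact permutation test of 2 libraries against 2 cannot give a two-sided p below 0.333, so none is reported. In these bulk samples, fewer cells expressing a gene and less RNA per cell cannot be told apart.

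Whole reads could be recovered from the RPKM values and summed to between 3324829 and 5431205 per library, so genes of low expression rest on few reads. The SMAD target genes PMEPA1, JUNB, SMAD7 and SKIL were each called higher, with JUNB at 21.7 ± 0.0375 and 293 ± 8.06 RPKM. Among 13 proximal tubule markers, PAX8, GGT1, DPP4, KRT8 and KRT18 were among those that passed the filter, whereas CUBN, SLC34A1, AQP1 and ANPEP had 5 reads or fewer in each library. Summed RPKM of the tubule markers was 267 to 280 in controls and 352 to 387 with TGF-β1. For fibroblast markers, 6 of 8 in the table, it was 12.6 to 13.2 and 7.15 to 9.04, nearly all from LUM, with COL1A2 at 0 reads in all 4 libraries. The 3 endothelial markers in the table, CDH5, VWF and CLDN5, had 0 reads throughout. The immune markers, 4 of 8 in the table, summed to 3.5 to 4.07 and 11.6 to 12.1 RPKM, most of it CSF1R, with LYZ at 0 or 1 read. The part of these markers in the results below was not tested. The authors' scaling matters to direction: 67.1% of called genes were higher with it, 50.4% with quantile-normalised values and 42.6% with scaling by total recovered reads. That last scaling moved the median of all tested genes by -0.15 on the log2 scale.

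**Figure D1:**
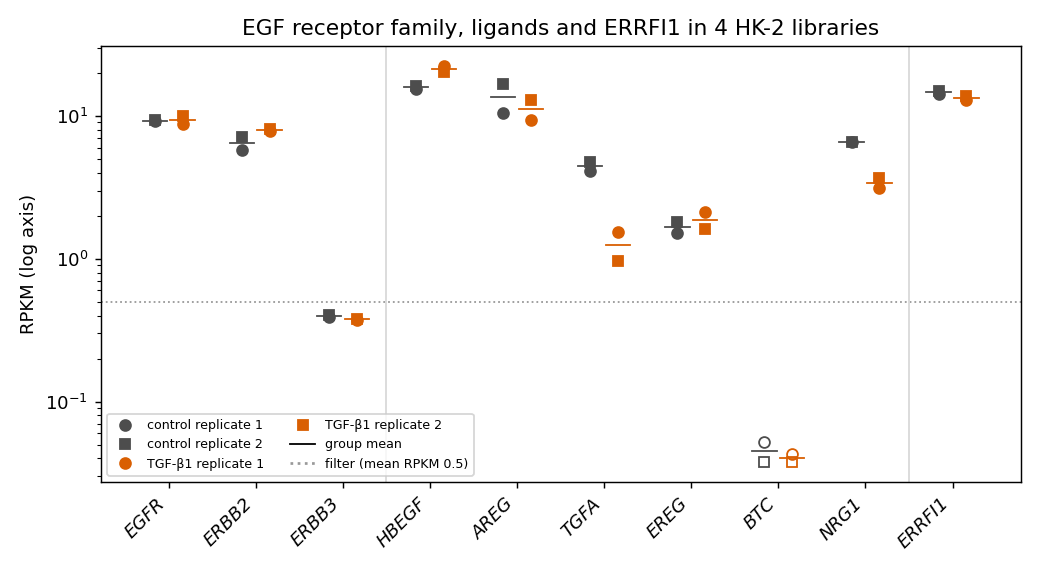
RPKM of the 10 genes on a log axis in the 2 control libraries (grey) and the 2 TGF-β1 libraries (orange), with bars at group means and a dotted line at the filter of 0.5 RPKM. TGFA and NRG1 lie lower with TGF-β1 in both libraries, EGFR lies near 9 RPKM in both groups, and the open symbols of BTC are libraries with 0 reads.

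EGFR, the receptor of the larger group of ligands (hg38, chromosome 7, 55019021 to 55211628), measured 9.17 and 9.34 RPKM in the controls and 8.7 and 10.0 RPKM with TGF-β1. The TGF-β1 libraries lay on either side of both controls. On 389 to 591 reads per library, the log2 fold change of EGFR was 0.01, 95% confidence interval (CI) -0.27 to 0.30 (limma, adjusted p = 0.955), and its sign changed with 3 other scalings of the RPKM or log2 values, to between -0.03 and -0.16, and with voom on the recovered reads (-0.16).

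ERBB2, the partner receptor on chromosome 17 (39687914 to 39730426), measured 5.76 and 7.12 RPKM in the controls and 7.87 and 8.12 RPKM with TGF-β1. Both TGF-β1 libraries were above both controls, but the controls were farther from each other than replicate 2 of them was from the nearer TGF-β1 library. Its log2 fold change of 0.30 (95% CI -0.05 to 0.65) did not pass (adjusted p = 0.267, limma). Exons of MIEN1 and PGAP3 on the opposite strand cover 5.53% and 1.88% of its exon length, and the table does not tell their reads from those of ERBB2 if strand was ignored in counting. GRB7, an adaptor that binds ERBB2 and whose gene starts 7.5 kb beyond the end of ERBB2, fell from 14.9 ± 1.53 to 7.49 ± 0.527 RPKM (log2 -0.95, adjusted p = 0.0137, limma). The difference between these neighbours was not tested.

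ERBB3, the receptor that NRG1 binds, was close to the limit of detection, with 11 and 16 reads in controls against 13 and 15 in TGF-β1 libraries. These reads correspond to 0.392 and 0.405 RPKM and to 0.375 and 0.38 RPKM. Fitted without the expression filter, ERBB3 had a log2 fold change of -0.03 (95% CI -0.46 to 0.39; limma, adjusted p = 0.943). At this depth a difference within that interval could not be detected, on a scale that understates changes at so low a level. Its identifier has another version in GENCODE 29, and the exon length behind its reads, 8663 bases, was inferred from the values. ERBB4 was not analysed here.

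HBEGF, a heparin-binding ligand of EGFR on chromosome 5 (140332843 to 140346631), was the most abundant ligand in 3 of the 4 libraries. It measured 15.4 and 16.2 RPKM in the controls and 22.4 and 20.2 RPKM with TGF-β1, from 157 to 287 reads. The groups were separate, and each varied little within itself. HBEGF thus had a 1.35-fold ratio of means and a log2 fold change of 0.42 (SE 0.09, 95% CI 0.19 to 0.65). It passed when the filter was raised to 2 RPKM (adjusted p = 0.0378, limma), where fewer genes are tested, and under no other of 14 alternatives. Scaled by total recovered reads the value was 0.24 (adjusted p = 0.19).

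AREG, amphiregulin, exceeded HBEGF only in control replicate 2. It measured 10.5 and 16.7 RPKM in the controls and 9.42 and 13.0 RPKM with TGF-β1. In each group replicate 2 was the higher, and the groups overlapped. The log2 fold change of -0.25 had a wide 95% CI of -0.91 to 0.41 (adjusted p = 0.611, limma) and turned to 0.07 without control replicate 2.

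TGFA, transforming growth factor α (chromosome 2, 70447280 to 70554193, minus strand), measured 4.13 and 4.78 RPKM in the controls and 1.53 and 0.963 RPKM with TGF-β1. Both TGF-β1 libraries were well below both controls, and replicate 2 was the lower. Control values rest on 69 and 111 reads, TGF-β1 values on 31 and 22. On the log2 scale TGFA fell by 1.52 (SE 0.23, 95% CI -2.11 to -0.93; limma, adjusted p = 0.0231). The direction held in all 14 alternatives (-2.09 to -1.29), but the call was lost without control replicate 1 (0.0539), control replicate 2 (0.0713) or TGF-β1 replicate 2 (0.0636), without the filter (0.0536) and without the variance trend (0.0616). None of the 5101 words of 50 bases in the TGFA transcripts was found in another gene of GENCODE 29.

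EREG, epiregulin, was weakly expressed, at 1.52 and 1.8 RPKM in the controls and 2.13 and 1.62 RPKM with TGF-β1, and the groups overlapped. The EREG log2 fold change was 0.13 (95% CI -0.44 to 0.70; limma, adjusted p = 0.786), and scaling by total recovered reads turned it to -0.01. BTC, betacellulin, had 0 reads in all 4 libraries. A floor of 3 reads per library allows at most 0.226 to 0.314 RPKM, which covers counting error only.

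NRG1, neuregulin 1 (chromosome 8, 31639386 to 32767959), measured 6.6 and 6.58 RPKM in the controls and 3.13 and 3.68 RPKM with TGF-β1. The controls were nearly equal, and both TGF-β1 libraries stood clear below them, on 253 and 350 reads against 147 and 196. On the log2 scale NRG1 fell by 0.86 (SE 0.14, 95% CI -1.22 to -0.50; limma, adjusted p = 0.027). All 14 alternatives kept the direction (-1.13 to -0.76). The call was lost whichever library was left out (adjusted p = 0.0707 to 0.105) and without the variance trend (0.0659). RPKM sums the many isoforms of this gene over 11328 exon bases, and isoforms cannot be told apart in the table.

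ERRFI1, also called MIG6, binds the EGFR kinase and inhibits it, and is itself induced by the pathway. It measured 14.3 and 15.0 RPKM in the controls and 13.0 and 13.7 RPKM with TGF-β1. Although both TGF-β1 libraries were lower, the step was small, with a log2 fold change of -0.13 (95% CI -0.35 to 0.10; limma, adjusted p = 0.446). It passed only with voom on the recovered reads scaled by their totals (-0.31, adjusted p = 0.0449), a fit in which the median of all tested genes was -0.15.

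**Figure D2:**
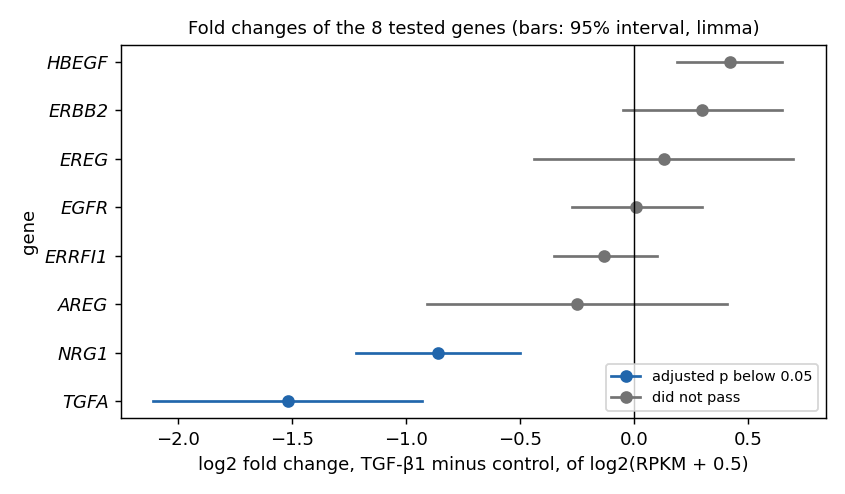
Log2 fold changes (TGF-β1 minus control) of the 8 tested genes with 95% confidence intervals from limma; blue marks an adjusted p below 0.05. TGFA (-1.52) and NRG1 (-0.86) lie below 0, the interval of HBEGF (0.19 to 0.65) lies above 0 without passing after adjustment, and the other 5 intervals include 0.

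The order of the levels differed between the groups mainly in its lower part. In controls HBEGF (15.4 to 16.2 RPKM), ERRFI1 (14.3 to 15.0) and AREG (10.5 to 16.7) led, and the range of AREG overlapped those of both others. EGFR followed at 9.17 to 9.34 RPKM. NRG1 (6.58 to 6.6 RPKM) lay inside the range of ERBB2 (5.76 to 7.12), so these neighbours did not differ beyond their spread. TGFA (4.13 to 4.78 RPKM) was above EREG (1.52 to 1.8). With TGF-β1, HBEGF stood apart at the top (20.2 to 22.4 RPKM), and AREG (9.42 to 13.0) overlapped EGFR (8.7 to 10.0). ERBB2 (7.87 to 8.12 RPKM) was then clear of NRG1 (3.13 to 3.68). EREG (1.62 to 2.13, on 50 and 43 reads) was narrowly above TGFA (0.963 to 1.53, on 31 and 22 reads). That order was not tested.

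Expressed as shares, the ligands of EGFR changed in composition while their sum overlapped between groups. Over the 7 EGFR ligands in the table (the 5 named above with EGF and EPGN) the summed level was 32.1 and 40.3 RPKM in the controls and 36.3 and 36.4 RPKM with TGF-β1. TGFA made up 12.9% and 11.9% of that sum in controls, against 4.21% and 2.64% in TGF-β1 libraries. HBEGF made up 48.0% and 40.3% in controls, against 61.8% and 55.5%. The ratio of HBEGF to TGFA was 3.73 and 3.4 without TGF-β1, against 14.7 and 21.0 with it. This ratio within a library does not depend on how the library was scaled. Summed ligands relative to EGFR overlapped between groups, at 3.5 and 4.32 in controls against 4.17 and 3.63 in TGF-β1 libraries. These shares and ratios are descriptions with no test.

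**Figure D3:**
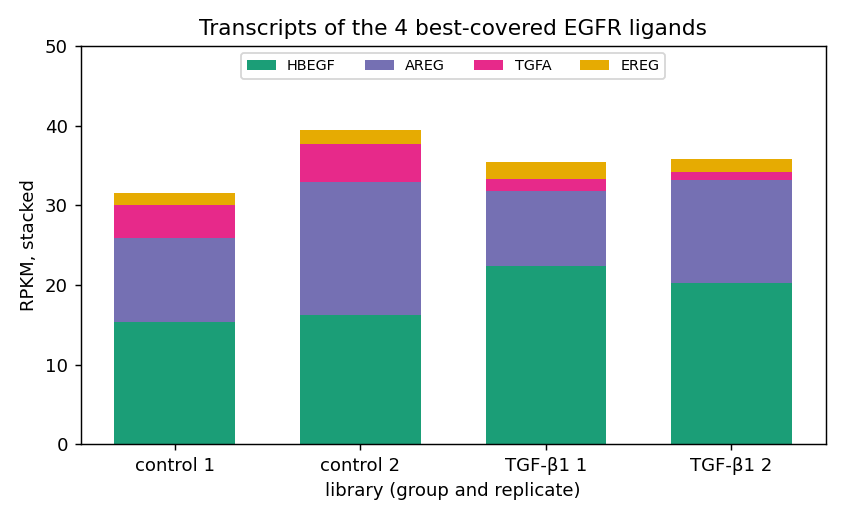
Stacked RPKM of HBEGF, AREG, TGFA and EREG in each of the 4 libraries. The stacks of the 2 groups overlap in height, and the TGFA segment shrinks from 4.13 and 4.78 RPKM in controls to 1.53 and 0.963 RPKM with TGF-β1.

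EREG, AREG and BTC lie in 1 cluster on chromosome 4 with EPGN, another EGFR ligand. EPGN ends 49.8 kb before EREG, EREG ends 56.4 kb before AREG, and AREG ends 289.8 kb before BTC. Levels along the cluster ranged from 0 reads of BTC and 2 to 4 reads per library of EPGN to more than 9 RPKM of AREG. Of 15 genes in the table within 500 kb of these 3 ligands, the ligands among them, 5 were tested. Of these, limma called 0 higher and 0 lower, against 9.12% of all tested genes called, and 5 genes are too few to tell such shares apart. None of the 5 had an adjusted p below 0.109, that of the chemokine gene CXCL2 (4.18 ± 0.209 against 2.69 ± 0.294 RPKM). TGFA and NRG1, which fell, lie on other chromosomes.

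Stretches before a RefSeq start site of TGFA, HBEGF and AREG are shown because these EGFR ligands had different values in the same cells. Sequences are from RefSeq on GRCh38.p14, which held a promoter for 8 of the 10 genes. Of the 250 bases before a start site, only bases outside every exon of GENCODE 29 are printed, and for TGFA these are the 61 bases farthest from its upstream start. That TGFA stretch lies inside the GENCODE 29 span of the gene (70447280 to 70554193), since 189 of the 250 bases are in annotated exons. The HBEGF and AREG stretches lie outside the spans of their genes. Capitals mark matches on either strand to TGANTCA (AP-1), TGACGTCA (CRE, the cyclic AMP response element), CAGACA (a SMAD box), CACCTG (an E-box) or GGGCGG (SP1); in HBEGF 2 SP1 matches run into each other.
TGFA, chr2:70554016-70554076, minus strand: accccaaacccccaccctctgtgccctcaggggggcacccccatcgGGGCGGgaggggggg
HBEGF, chr5:140346632-140346853, minus strand: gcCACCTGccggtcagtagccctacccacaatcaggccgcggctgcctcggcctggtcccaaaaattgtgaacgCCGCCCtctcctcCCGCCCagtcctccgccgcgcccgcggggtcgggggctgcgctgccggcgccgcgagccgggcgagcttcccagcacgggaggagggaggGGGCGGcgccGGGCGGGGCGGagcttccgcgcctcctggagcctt
AREG, chr4:74444886-74445133, plus strand: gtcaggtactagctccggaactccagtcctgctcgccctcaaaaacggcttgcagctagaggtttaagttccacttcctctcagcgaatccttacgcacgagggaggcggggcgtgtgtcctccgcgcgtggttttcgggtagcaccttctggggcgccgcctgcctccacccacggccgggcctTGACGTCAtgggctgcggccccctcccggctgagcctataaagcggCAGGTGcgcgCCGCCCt

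Over the full 250 bases, the upstream TGFA start had 3 SP1 matches and HBEGF 5, and 42.6% of 34788 windows of this length over all RefSeq genes hold at least 1. AREG had 1 CRE match, 65 bases before its start, which 1.64% of windows hold. AP-1 matches, held by 6.59% of windows, were found for ERBB2 and for the internal start of EGFR, and not in the windows of TGFA, HBEGF, AREG, EREG, BTC or ERRFI1. Such windows can include bases in annotated exons, among them all 250 for ERBB2 and 116 for the internal start of EGFR. The SMAD box, held by 13.6% of windows, was found for EREG and for the internal start of EGFR. The E-box, held by 17.5% of windows, was found for HBEGF, AREG, EREG, BTC and the downstream start of TGFA. These matches are letters in a window and not shown to be bound.

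The series concerns miR-17 and miR-20a, which share a seed, here bases 2 to 8 in capitals, so matches to it are given for these genes. The longest coding-transcript 3′ UTR of each gene in GENCODE 29 was searched for GCACTTT. EGFR, EREG and ERBB3 held it, with 1, 1 and 3 matches, and TGFA, NRG1, HBEGF, AREG, ERBB2, BTC and ERRFI1 held none. Among tested genes with such a UTR, 2808 of 11238 had a match. The sites of EGFR and EREG, with the match in capitals, are printed beside the microRNAs.
hsa-miR-17-5p: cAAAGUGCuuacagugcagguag
hsa-miR-20a-5p: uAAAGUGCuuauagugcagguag
EGFR site: gcaataacataGCACTTTgttggtttata
EREG site: actctgtaattGCACTTTttaagtttgaa
The genes with a match had log2 fold changes of 0.01 (EGFR), 0.13 (EREG) and, without the filter, -0.03 (ERBB3). Their UTRs are 6011, 3943 and 1450 bases long, against a median of 1333 over tested genes. Those of TGFA and NRG1, which hold no match, are 3579 and 3557 bases long. Any link between matches and changes was not tested. Mature microRNAs were not analysed here.

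The remaining ligands of the family were near or at 0. EGF had 2 to 9 reads per library, NRG3 0 or 1, and NRG2 and NRG4 0 reads in all 4 libraries. With EPGN these are 5 genes, and none of them passed the expression filter.

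Of 10 tested genes that release or help to release the ligands, 3 rose and 0 fell (30.0% called, against 9.12% of all tested genes; median log2 -0.03). ADAM19, a metalloprotease that can cleave neuregulin, rose 8.71-fold from 1.18 ± 0.183 to 10.3 ± 0.148 RPKM (adjusted p = 0.00256, limma). ADAM12, which can shed HB-EGF, rose 3.24-fold to 2.61 ± 0.19 RPKM. RHBDF2, an iRhom that carries ADAM17 to the surface, rose 1.68-fold to 7.18 ± 0.403 RPKM. Leaving out any single library ended both calls (adjusted p up to 0.165 and 0.187). ADAM17, the main sheddase of AREG and TGFA, measured 10.2 ± 1.23 and 9.83 ± 0.692 RPKM (log2 -0.05, adjusted p = 0.865). ADAM10 measured 1.94 ± 0.249 and 1.38 ± 0.102 RPKM (log2 -0.37, adjusted p = 0.361). RHBDF1, another iRhom, measured 4.18 ± 0.245 and 4.14 ± 0.0725 RPKM (log2 -0.01, adjusted p = 0.964, limma). Scaled by total recovered reads, 2 of the 10 rose and 1 fell, with a median of -0.20. The voom fit of recovered reads called 3 higher and 2 lower. With the filter at 2 RPKM, 2 of 7 were called, against 1750 of 10440 of all genes tested.

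Of 28 tested adaptors and kinases of the ERK and PI3K branches, 2 rose and 1 fell (median log2 0.05), a share of 10.7% against 9.12% of all tested genes. SHC1, an adaptor that docks on activated receptors, rose 1.53-fold from 31.6 ± 1.66 to 48.5 ± 3.95 RPKM, and without TGF-β1 replicate 2 it missed the threshold (adjusted p = 0.0731, limma). HRAS, a RAS GTPase, rose 1.39-fold to 34.6 ± 0.99 RPKM, a call that 3 of the 4 omissions of a library ended (adjusted p up to 0.145) and that scaling by total recovered reads also ended (0.0764). The gene that fell was GRB7. With voom on recovered reads, 2 of the 28 were called higher and 6 lower. With the filter at 2 RPKM, 3 of 23 were called, against 1750 of 10440 of all genes tested.

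Of 24 tested attenuators of the pathway, 4 rose and 0 fell (16.7% called, against 9.12% of all tested genes; median log2 0.25). With the filter at 2 RPKM, 4 of 21 were called, against 1750 of 10440 of all genes tested. The part of expression level in these shares was not tested. Scaling by total recovered reads left 3 calls, all higher, and a median of 0.08. The voom fit of recovered reads called 5 higher and 2 lower. RASA1, which switches RAS off, rose 3.39-fold from 1.9 ± 0.0667 to 6.44 ± 0.225 RPKM (adjusted p = 0.00731, limma). SH3KBP1, or CIN85, which works with CBL in EGFR endocytosis, rose 3.48-fold from 4.45 ± 0.192 to 15.5 ± 3.36 RPKM. LRIG3, of a family of leucine-rich membrane proteins that act on ERBB receptors, rose 2.33-fold to 7.06 ± 0.893 RPKM, and the fourth was the receptor phosphatase PTPRK, 1.72-fold to 9.14 ± 0.0971 RPKM. LRIG3 missed the threshold without TGF-β1 replicate 2 (adjusted p = 0.0974), and PTPRK without control replicate 1, TGF-β1 replicate 1 or TGF-β1 replicate 2 (up to 0.127). SPRY1, a Sprouty feedback inhibitor, was lower in both TGF-β1 libraries (0.425 ± 0.043 against 1.48 ± 0.675 RPKM) but did not pass (log2 -1.06, adjusted p = 0.125). DUSP6, the ERK phosphatase, measured 1.88 ± 0.362 and 2.77 ± 0.52 RPKM (log2 0.46, adjusted p = 0.29).

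**Figure D4:**
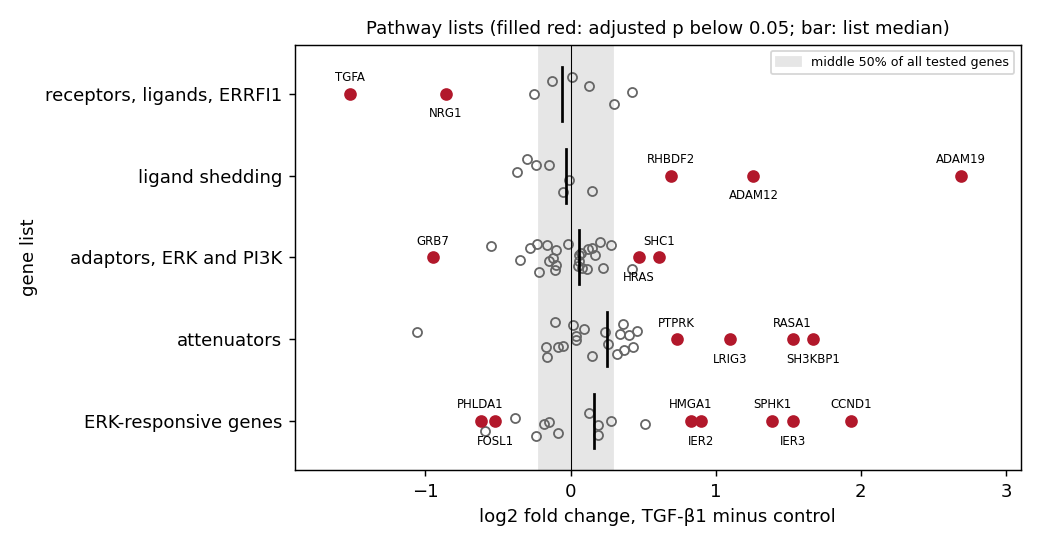
Log2 fold change (TGF-β1 minus control) of each tested gene in 5 gene lists; filled points passed at an adjusted p below 0.05, black bars are list medians and the grey band is the middle 50% of all tested genes. TGFA and NRG1 are to the left, ADAM19 (2.69) is the farthest to the right, and the ERK-responsive list has called genes on both sides.

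Of 18 tested genes known to respond to ERK, 5 rose and 2 fell (38.9% called, against 9.12% of all tested genes; median log2 0.16, and -0.02 with scaling by total recovered reads). With the filter at 2 RPKM, 7 of 17 were called, against 1750 of 10440 of all genes tested. With voom on recovered reads 5 were called higher and 6 lower. SPHK1, a sphingosine kinase, rose 2.64-fold from 29.2 ± 0.357 to 77.3 ± 0.05 RPKM, IER3 2.90-fold to 152 ± 3.76 RPKM and CCND1, cyclin D1, 4.26-fold from 3.17 ± 0.289 to 13.5 ± 0.132 RPKM (adjusted p = 0.00136, 0.00263 and 0.0028, limma). These 3 genes passed in all 14 alternatives. FOSL1, an AP-1 subunit, fell from 40.9 ± 0.458 to 28.4 ± 0.621 RPKM (log2 -0.52), and PHLDA1 fell from 29.9 ± 2.66 to 19.2 ± 0.527 RPKM (log2 -0.62). Both missed the threshold without TGF-β1 replicate 1 or replicate 2 (adjusted p up to 0.0653 and 0.0784). EGR1, an immediate-early gene of the pathway, measured 3.32 ± 1.58 and 1.95 ± 0.539 RPKM (adjusted p = 0.377). Many genes of this list also respond to other signals, TGF-β among them.

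The genes whose values followed that of TGFA most closely over the 4 libraries were MITF, CCDC198 and CXADR. Likeness was the Euclidean distance between log2(RPKM + 0.5) values centred on each gene's mean, and the distances were 0.03, 0.106 and 0.11 among 13461 genes with a mean of at least 1 RPKM. With 4 libraries in 2 groups, this measure mostly reflects the difference between groups.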

How the data were processed

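The authors deposited 1 table of RPKM values, 4 columns by 25609 genes named by versioned Ensembl identifiers, of which 25312 were paired with symbols. STAR 2.7.1a, bcl2fastq 2.20.0.422, DESeq2 and the hg38 build are listed, without roles, per the submitters' processing notes. No source used here states the annotation, the strand setting or the tool that gave RPKM. Per the labels' protocols, a directional NEBNext kit was used.

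Multiplied by exon length (GENCODE 29), values equalled integer reads plus 0.5, multiplied by 1 factor per library (tolerance 0.01 read, 100% of genes with the same identifier version). Reads were recovered for 25466 genes (99.4%). RPKM as deposited was tested with limma 3.58.1 (R 4.3.3), with a variance trend, on log2(RPKM + 0.5) for 16590 genes with a mean of at least 0.5 RPKM. P values were adjusted over all of them by Benjamini-Hochberg. The procedure was also tested on simulated data that had no difference in scaling between the groups. The outcome is not given and is not used as support for any result.

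Samples were grouped by title. The genes and lists were chosen with earlier results of these data known. All 10 genes are named; each pathway list gives its 3 called genes with the smallest p, and called genes within 500 kb of the chromosome 4 ligands and the 3 genes most like the largest fall are added. PTPRK, FOSL1, PHLDA1, CXCL2, ADAM17, ADAM10, RHBDF1, SPRY1, DUSP6 and EGR1 were named after their values were seen. Alternatives were the pseudocount, filter, scaling, variance trend, a voom fit of recovered reads, a replicate block and each library left out.

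Some genes of the marker and SMAD target lists are not reported here.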

Additional observations from a re-analysis of the deposited data

How the results depend on the processing

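Each result was refitted under 14 alternatives. TGFA and NRG1 kept their direction in all of them and passed in 9 each; HBEGF, ERBB2 and ERRFI1 also kept theirs. Without the filter TGFA did not pass (-1.52, adjusted p = 0.0536), and without the variance trend neither TGFA (-1.52, 0.0616) nor NRG1 (-0.86, 0.0659) did. HBEGF passed with a filter of 2 RPKM (0.42) and ERRFI1 with voom (-0.31). The sign of EGFR turned with median-of-ratios scaling (-0.03), quantile normalisation (-0.04), total recovered reads (-0.16) and voom (-0.16), and that of EREG with total recovered reads (-0.01) and voom (-0.05). With 1 library left out, where the lone library is assumed to vary like the other group, values ranged from -0.09 to 0.11 for EGFR, 0.16 to 0.44 for ERBB2, -0.58 to 0.07 for AREG, -0.03 to 0.28 for EREG, 0.35 to 0.49 for HBEGF, -1.76 to -1.29 for TGFA, -0.96 to -0.76 for NRG1 and -0.16 to -0.09 for ERRFI1. Of all genes 1513 were called, 977 without the filter, 424 without the trend, 3964 with voom (1182 higher, 2782 lower) and 574 to 1138 with 1 library left out. Of the 10 genes 2 were called, 1 without the filter, 0 without the trend (3 at an unadjusted p under 0.05, limma) and 0 to 1 with 1 library left out (3 or 4 at an unadjusted p under 0.05). The shedding list had 3 calls, 1 without the filter, 1 without the trend, 5 with voom (3 higher, 2 lower) and 1 under each omission. The adaptors had 3, 0 without the trend (4 at an unadjusted p under 0.05), 8 with voom (2 higher, 6 lower, against 2 and 1) and 1 to 3 with omissions. The attenuators had 4, 2 without the trend, 7 with voom (5 higher, 2 lower, against 4 and 0) and 2 to 4 with omissions. The ERK-responsive genes had 7, 3 without the trend, 11 with voom (5 higher, 6 lower, against 5 and 2) and 5 to 8 with omissions. Apart from the stated effect of testing fewer genes or libraries, the cause was not tested. The replicate numbers come from titles, and same-numbered libraries did not deviate together (correlation 0.03 over genes). With the number as a replicate block, the shedding list kept 1 call, ADAM19 (ADAM12 0.0529, RHBDF2 0.0548), and TGFA and NRG1 passed. Depth limits ERBB3, BTC, EPGN and EGF, with 16 reads or fewer per library. ERBB3 and BTC had no value in the tested set, and the other ligands gave no count.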
